A study of Rattus norvegicus with 12 samples.

Results

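The genes described here are the classical axon guidance ligands and receptors of the rat hippocampus: Slit and Robo genes, netrins, semaphorins of classes 3 to 7, plexins, ephrins and Eph receptors. They were taken by gene symbol, with a summed estimated read count of at least 60 over the 6 RNA libraries. The rule found 61 genes among the 26949 of the RNA table, 35 ligands and 26 receptors, and all 61 were among the 17935 genes tested. No gene with a matching symbol fell under the limit, and the members nearest to it were Efna4 with 68 counts, Ntn5 with 71 and Epha1 with 73. The hippocampi came from male rats kept for 4 weeks in chronic intermittent hypoxia (CIH), repeated episodes of low oxygen that model sleep apnoea, or in normoxia (control). Each group had 3 RNA libraries and 3 small RNA libraries. The labels give neither the strain, the age and the depth of hypoxia nor the part of the hippocampus sampled. Nor do they tie the 3 libraries of a group to different animals, and each p-value measures only the spread between these libraries.

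Guidance cues steer growing axons by attracting or repelling the growth cone, and many stay expressed in the adult hippocampus, where they act on spines and synapses. Slits are secreted repellents read by Robo receptors, and netrins are secreted cues read by DCC and UNC5 receptors. Semaphorins signal through plexins, with neuropilins as co-receptors for most secreted class 3 semaphorins. Ephrins are held at the membrane and bind Eph receptor tyrosine kinases on the neighbouring cell, so that both cells can respond.

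RNA libraries held 17170943 to 21941173 estimated counts, and every pair differed by more than sampling noise, with 6.67 as the smallest chi-square per degree of freedom. Most markers of hippocampal fields were detected in every library, with the dentate markers Tdo2 and Lct and the CA3 marker Iyd each at 0 in some. The summed level of 5 CA1 markers, none at 0, ran from 917 to 1221 CPM (read counts scaled to a common library size) in CIH and from 593 to 1266 CPM in control libraries. Wfs1 made up 784 of the 1266 CPM in control library 1. Fibcd1, another of the 5, ran from 53.2 CPM in CIH library 1 to 348 CPM in CIH library 2. The libraries differed among themselves in ways the groups do not describe. The summed level of 9 dentate granule cell markers was 91.7, 250.5 and 567 CPM in CIH libraries 1, 2 and 3, against 661, 198 and 301 CPM in control libraries 1, 2 and 3. CIH library 1 also had the highest summed level of 9 cortex markers, 591 CPM, while the other CIH libraries had 267 and 283 CPM and the control libraries 241 to 335 CPM. In whole tissue, fewer cells of a type and less RNA per cell cannot be told apart.

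None of the 61 guidance genes passed the threshold between CIH and control (edgeR quasi-likelihood test, Benjamini-Hochberg adjusted p of 1.00 at the lowest), where 0.00% of all tested genes passed. DESeq2 also called none of the 60 members to which it gave an adjusted p, and 0.0372% of all genes with one. The members split into 33 with a higher and 28 with a lower fitted level in CIH. Their median log2 fold change, CIH over control, was 0.01 with a median standard error (SE) of 0.29, beside a median of 0.00 and an SE of 0.20 over all tested genes. At an unadjusted p under 0.05, edgeR found 1 member, the ephrin Efnb3, against 1.78% of all tested genes. That count rested on single libraries. Without control library 1 it was 11 of the 61 members, against 5.49% of all genes. It was 3 without CIH library 2 (3.35% of all genes), 3 without CIH library 3 (1.86%) and 0 without control library 2 (1.39%). In CPM, the 3 CIH libraries stood clear of the 3 control libraries in 2 members, Plxnd1 and Epha1, both higher in CIH. Over all tested genes, 5.70% stood clear, 3.05% with CIH higher and 2.65% with CIH lower.

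**Figure D1:**
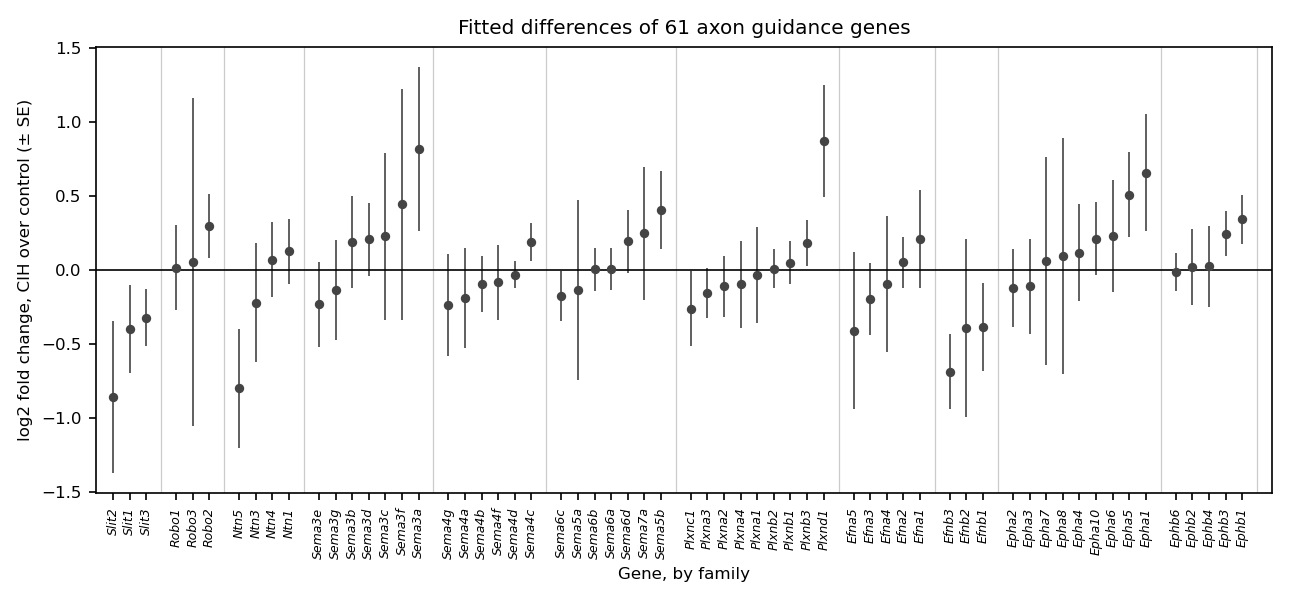
Log2 fold change of the 61 guidance genes, CIH over control, with its SE from the edgeR fit, ordered within each family. Slit2, Ntn5 and Efnb3 lie lowest and Plxnd1, Sema3a and Epha1 highest, while most bars cross 0.

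The 3 Slit ligands had negative fold changes in the fit and in all 12 other settings, and none was called. Slit1 (gene ID 65047), the most abundant guidance gene by TPM, a unit corrected for transcript length, at 169 TPM over the 6 libraries, had 195, 422 and 284 CPM in CIH libraries 1, 2 and 3, against 299, 431 and 459 CPM in control libraries 1, 2 and 3. Its log2 fold change was -0.40 (SE 0.30), and it was -0.17 without CIH library 1 and -0.73 without CIH library 2. CIH library 1 was lowest and CIH library 3 next, while CIH library 2 lay within the control values.

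Slit2 (gene ID 360272) had 58.9, 109.6 and 56.3 CPM in CIH libraries 1, 2 and 3, against 48.5, 166 and 193 CPM in control libraries 1, 2 and 3. The lowest library of all was control 1, below every CIH library, while controls 2 and 3 were above every CIH library. The log2 fold change of -0.86 (SE 0.51; edgeR adjusted p = 1.00) became -1.26 without control library 1 and -0.52 without control library 3. Slit3 (gene ID 83467) had 139.7, 233 and 180.0 CPM in CIH libraries, against 206, 236 and 249 CPM in control libraries, a log2 fold change of -0.32 (SE 0.20) that was -0.16 without CIH library 1 and -0.53 without CIH library 2. CIH library 2 lay within the control values, and CIH libraries 1 and 3 lay below them.

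The 3 Robo receptors had fold changes at or above 0, but 1 or 2 of them were below 0 in limma, with the replicate block, and without CIH library 2 or 3 or control library 2 or 3. Robo1 (gene ID 58946) averaged 130 ± 48.8 CPM in CIH and 128 ± 12.4 CPM in control libraries (SD, n = 3 each), and its log2 fold change was 0.01 (SE 0.29). Robo2 (gene ID 84409), the Robo gene with the highest TPM at 87.5, had 171, 171 and 223 CPM in CIH libraries 1, 2 and 3, against 201, 122 and 137 CPM in control libraries 1, 2 and 3, a log2 fold change of 0.29 (SE 0.21). It was 0.15 without CIH library 3 or control library 2 and 0.54 without control library 1. Control library 1 lay among the CIH values and the other 2 controls below them. Robo3 (gene ID 315564), which in the mouse hindbrain and spinal cord lets commissural axons cross the midline, spread more than any other member. It had 14.5, 13.2 and 51.5 CPM in CIH libraries 1, 2 and 3, against 66.9, 6.39 and 3.29 CPM in control libraries 1, 2 and 3. CIH library 3 and control library 1 were far above the other 4 libraries, and the log2 fold change was 0.05 (SE 1.11). Robo3 was named after its values were seen, and its gene overlaps Robo4, so its reads are uncertain where strand was not used.

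Slit2 and Slit3 also host the miR-218 genes. In RefSeq (assembly GRCr8), Mir218-1 lies within Slit2 and Mir218-2 within Slit3, and both hairpins give the same 5' product, miR-218a-5p, which is known to target Robo1 and Robo2 in cell and animal studies. A further entry, miR-218b, lies within Slit2 on the strand opposite to Mir218-1. The mature sequences are shown because they tell which host gene a small RNA read can come from. Capitals mark the seed, bases 2 to 8 from the 5' end.
rno-miR-218a-5p, chr14:66922413-66922433 on the minus strand and chr10:20572547-20572567 on the plus strand: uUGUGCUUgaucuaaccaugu
rno-miR-218a-1-3p, chr14:66922374-66922394 on the minus strand: aAACAUGGuuccgucaagcac
rno-miR-218a-2-3p, chr10:20572589-20572610 on the plus strand: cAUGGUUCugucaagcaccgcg
rno-miR-218b, chr14:66922414-66922433 on the plus strand: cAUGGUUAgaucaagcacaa
The 4 seeds all differ. The reverse complement of the 20 bases of miR-218b lies whole within the 21 bases of miR-218a-5p, so a small RNA read is assigned to one or the other by strand, and each count alone is uncertain. The 2 passenger products, miR-218a-1-3p and miR-218a-2-3p, differ in sequence and so separate the locus in Slit2 from the locus in Slit3.

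miR-218a-1-3p, the product of the Slit2 locus, had 26, 50 and 26 reads in CIH small RNA libraries 1, 2 and 3, against 21, 111 and 127 reads in control small RNA libraries 1, 2 and 3. Scaled to library size these were 5.16, 10.9 and 5.40 CPM in CIH, against 4.49, 22.9 and 26.2 CPM in control libraries. Control library 1 was lowest and control libraries 2 and 3 highest, as for Slit2 mRNA in the RNA libraries of the same numbers, and the groups overlapped. The labels do not say that RNA and small RNA libraries of one number share an animal, so the values stand side by side only. Its log2 fold change was -1.32 (SE 0.68; edgeR adjusted p = 0.969 over 715 miRNAs, of which 0.00% were called). None of the 4 miR-218 names had an unadjusted p under 0.05, as 2.38% of all tested miRNAs did, and the groups overlapped for all 4, while they stood clear for 7.69% of all tested miRNAs.

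miR-218a-2-3p, the product of the Slit3 locus, had 424, 265 and 366 reads in CIH libraries 1, 2 and 3, against 98, 83 and 315 reads in control libraries 1, 2 and 3. CIH libraries 1 and 3 were above every control library, and control library 3 was above CIH library 2. The log2 fold change was 1.08 (SE 0.55) and the edgeR adjusted p was also 0.969, while Slit3 mRNA had a fold change of the opposite sign. Without control library 3 the log2 fold change of miR-218a-2-3p was 1.88.

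The mature product and miR-218b had fold changes nearer to 0. miR-218a-5p had 85365, 90171 and 93659 reads in CIH libraries, against 90367, 90974 and 93085 reads in control libraries, a log2 fold change of -0.03 (SE 0.10). miR-218b had 24777, 18209 and 31773 reads in CIH libraries, against 12948, 13458 and 34012 reads in control libraries, a log2 fold change of 0.30 (SE 0.42) that was 0.093 without control library 2 and 0.84 without control library 3. With the reads of both names added together, which was chosen after seeing the data, the log2 fold change was 0.03 (SE 0.12; edgeR adjusted p = 0.983).

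**Figure D2:**
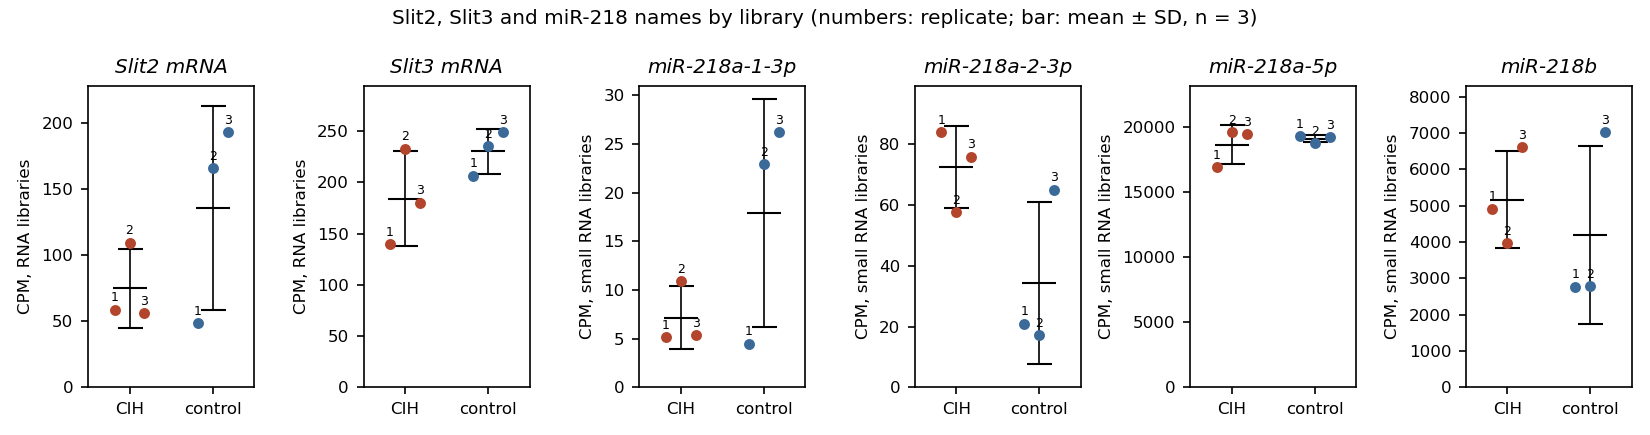
CPM of Slit2 and Slit3 mRNA in the RNA libraries and of the 4 miR-218 names in the small RNA libraries, CIH left of control, each point 1 library numbered by replicate, with the mean and SD (n = 3 each). Slit2 mRNA and miR-218a-1-3p are both low in control 1 and high in controls 2 and 3, while miR-218a-5p is nearly level at 16934 to 19644 CPM in CIH and 18805 to 19310 CPM in control libraries.

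The 4 netrins were expressed at low levels, between 0.598 TPM for Ntn5 and 11.7 TPM for Ntn1 over the 6 libraries, with 2 higher and 2 lower in CIH, and 1 higher without CIH library 1, control library 1 or control library 3. Ntn1 (gene ID 114523), the axon attractant read by DCC, had 11.7, 13.4 and 10.8 CPM in CIH libraries 1, 2 and 3, against 14.4, 10.2 and 8.39 CPM in control libraries 1, 2 and 3. The CIH values lay within the control range, and the log2 fold change was 0.12 (SE 0.22). Ntn5 (gene ID 308587) had 9, 8 and 8 counts in CIH libraries 1, 2 and 3, against 20, 16 and 10 counts in control libraries 1, 2 and 3. The control libraries had more counts each, but after scaling to library size CIH library 1, at 0.504 CPM, lay above control library 3, at 0.464 CPM. Its log2 fold change was -0.80 (SE 0.40; edgeR adjusted p = 1.00). The gene overlaps Sec1, which leaves so few reads uncertain.

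Among the 20 semaphorins, 11 were higher and 9 lower in CIH, with a median log2 fold change of 0.00. Class 3, the secreted semaphorins, had 5 of 7 higher and a median of 0.20, class 4 had 1 of 6 higher and a median of -0.09, and classes 5 to 7 had 5 of 7 higher and a median of 0.01. These counts rested on single libraries: class 3 had 2 of 7 higher without CIH library 1, and class 4 had 4 of 6 higher without CIH library 3 or without control library 2, and classes 5 to 7 had 3 of 7 higher without control library 3, in limma and with the replicate block. Sema7a (gene ID 315711), a membrane-anchored semaphorin with the highest TPM of the family at 114, had 114, 169.7 and 236 CPM in CIH libraries 1, 2 and 3, against 250, 83.9 and 104 CPM in control libraries 1, 2 and 3. Control library 1 was highest and control library 2 lowest of all 6. Its log2 fold change of 0.25 (SE 0.45) turned to -0.05 without CIH library 3 and to 0.88 without control library 1.

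Sema4d (gene ID 306790), a transmembrane ligand of plexin B1, was the steadiest member. It had 56.2, 61.1 and 60.8 CPM in CIH libraries, against 60.1, 61.6 and 60.6 CPM in control libraries, a log2 fold change of -0.03 (SE 0.09). Its SD within groups was 0.0487 on the log2(CPM + 1) scale, where the median member had 0.379. Sema3e (gene ID 296789), the ligand of plexin D1 and the class 3 gene with the highest TPM at 49.5, averaged 62.9 ± 23.6 CPM in CIH and 73.9 ± 12.3 CPM in control libraries (SD, n = 3 each), and its log2 fold change was -0.23 (SE 0.29).

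Sema3a and Sema3f, secreted repellents that signal through neuropilins, were high in 1 library and were named after their values were seen. Sema3a had 14.6, 3.37 and 4.40 CPM in CIH libraries 1, 2 and 3, against 4.67, 4.64 and 3.34 CPM in control libraries 1, 2 and 3. Sema3f had 11.7, 1.80 and 2.02 CPM in CIH libraries, against 3.23, 6.04 and 2.13 CPM in control libraries. CIH library 1 was highest for both, and the remaining libraries overlapped. The log2 fold change of Sema3a was 0.82 (SE 0.55) and turned to -0.12 without CIH library 1, while that of Sema3f was 0.44 (SE 0.78) and turned to -0.99.

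The 9 plexins, the semaphorin receptors, had 4 higher and 5 lower in CIH, with 6 higher without CIH library 1 and 2 higher without CIH library 2. Plxna2 (gene ID 289392), the plexin with the highest TPM at 104, averaged 348 ± 66.1 CPM in CIH and 376 ± 83.7 CPM in control libraries (SD, n = 3 each), and its log2 fold change was -0.11 (SE 0.21). Plxnd1 (gene ID 312652), the receptor of Sema3e in growing vessels and in neurons, had the largest fold change of the 9. It had 126, 58.6 and 58.5 CPM in CIH libraries 1, 2 and 3, against 50.9, 54.4 and 28.0 CPM in control libraries 1, 2 and 3. All CIH libraries were above all control libraries, but CIH libraries 2 and 3 lay close above control library 2, and CIH library 1 carried most of the difference. The log2 fold change was 0.87 (SE 0.38; unadjusted p = 0.0565, edgeR adjusted p = 1.00), and 0.39 without CIH library 1.

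Several marker lists were also highest in that library, where 25.7% of all tested genes had their highest value. All 14 of 14 vessel markers, among them the endothelial genes Flt1, Kdr and Cldn5, were highest in CIH library 1 and none was at 0 in any library. Their summed level was 569, 436 and 411 CPM in CIH libraries 1, 2 and 3, against 388, 396 and 379 CPM in control libraries 1, 2 and 3. Beside the cortex markers given above, 5 meninges markers summed to 187 CPM in CIH library 1, 4 of them highest there, against 49.7 to 113 CPM in the other 5 libraries. The 5 thalamus markers summed to 73.9 CPM in CIH library 1, again with 4 highest there, against 37.1 to 55.8 CPM in the others. All 14 vessel markers had a higher fitted level in CIH, as 50.6% of all tested genes did, and edgeR called 0 of them. In CPM the groups stood clear for 5 of the 14, against 5.70% of all tested genes. An unadjusted edgeR p under 0.05 was found for 2 of the 14, against 1.78% of all tested genes. The part of RNA from vessels or neighbouring tissue in the Plxnd1 result was not tested.

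The Plxnd1 promoter is shown because Plxnd1 was the better expressed of the 2 members whose groups did not overlap and because hypoxia-inducible factors bind the core letters ACGTG or GCGTG. It is the 250 bases before the start in RefSeq (GRCr8), chr4:150715188-150715437, on the minus strand, 5' to 3', with the matches in capitals.
Plxnd1: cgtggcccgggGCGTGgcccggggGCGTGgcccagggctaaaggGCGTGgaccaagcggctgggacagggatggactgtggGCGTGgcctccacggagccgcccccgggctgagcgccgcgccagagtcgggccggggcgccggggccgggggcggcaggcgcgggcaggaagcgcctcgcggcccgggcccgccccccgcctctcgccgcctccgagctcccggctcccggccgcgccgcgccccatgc
It holds 4 copies of GCGTG, all on the gene's own strand, and no ACGTG on either strand. The same 250 bases of Epha1, the other such member, hold neither motif on either strand. Promoter windows of 300 bases (250 before and 50 after the start) were matched for 48 of the 61 members, in 49 windows. On either strand, GCGTG was found in 40.8% of these windows and in 29.7% of 33469 windows of all genes, and ACGTG in 24.5% and 19.3%. The letters CACGTG match ACGTG on both strands. The 33469 windows cover 27457 genes, whether or not they were tested here, and base composition was not compared. A match describes the sequence and is not a binding site.

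Most ephrins had negative and most Eph receptors positive fold changes, though no member was called. Of the 8 ephrins 2 had a higher fitted level in CIH, with a median log2 fold change of -0.29, and this count was 1 or 2 in every other setting. That median moved with single libraries, to -0.51 without control library 1, -0.13 without CIH library 3, -0.17 without control library 2 and -0.10 without control library 3. Of the 14 Eph receptors 11 had a higher one, with a median of 0.10, but only 7 without CIH library 3 (median -0.01), 7 without control library 2 (0.03) and 8 without control library 3 (0.07). The median of the Eph receptors was 0.21 without CIH library 1 and 0.31 without control library 1. Over all genes tested, 50.6% were higher. The difference between ligands and receptors was not tested.

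Efnb3 (gene ID 360546), a transmembrane ephrin found at synapses and the ephrin with the highest TPM at 73.3, had the smallest p of the 61 members. It had 68.3, 91.8 and 102 CPM in CIH libraries 1, 2 and 3, against 93.2, 163 and 166 CPM in control libraries 1, 2 and 3. Controls 2 and 3 were above every CIH library, and control 1 lay between CIH libraries 2 and 3. The mean was 87.2 ± 17.1 CPM in CIH and 141 ± 41.1 CPM in control libraries (SD, n = 3 each). The log2 fold change was -0.69 (SE 0.25; unadjusted p = 0.0307, edgeR adjusted p = 1.00), -0.91 without control library 1 and -0.55 without CIH library 1.

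The other B ephrins had log2 fold changes of -0.39 each, with SEs of 0.30 for Efnb1 and 0.60 for Efnb2. With single libraries left out, Efnb1 ran from -0.62 (without CIH library 2 or control library 1) to -0.20 (without control library 3), and Efnb2 from -0.96 (without CIH library 1) to -0.10 (without control library 2). Efnb2 (gene ID 306636), an ephrin of arteries and synapses named after its values were seen, had 16.6, 7.87 and 5.66 CPM in CIH libraries 1, 2 and 3, against 4.22, 18.01 and 17.2 CPM in control libraries 1, 2 and 3. Its lowest library was control 1 and the next lowest CIH 3. Among the A ephrins, which are tied to the membrane by a lipid anchor, Efna3 (gene ID 170901) had the highest TPM at 34.2 and a log2 fold change of -0.20 (SE 0.24). Efna4, the member nearest to the count limit, had 7, 14 and 11 counts in CIH libraries, against 12, 6 and 18 counts in control libraries, and its log2 fold change was -0.10 (SE 0.46).

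Epha5 (gene ID 79208), a receptor of A ephrins that maps hippocampal axons onto their targets in development, was the Eph gene with the highest TPM at 161. It had 197, 187 and 248 CPM in CIH libraries 1, 2 and 3, against 220.4, 115 and 109.8 CPM in control libraries 1, 2 and 3. Control library 1 lay among the CIH values, and controls 2 and 3 lay well below them. The log2 fold change was 0.51 (SE 0.29; edgeR adjusted p = 1.00) and 0.91 without control library 1, which gave the lowest adjusted p of any member under any setting, 0.607.

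Ephb1 (gene ID 24338), a receptor of B ephrins, had 71.4, 58.3 and 53.5 CPM in CIH libraries 1, 2 and 3, against 57.0, 46.9 and 40.6 CPM in control libraries 1, 2 and 3. Control library 1 lay between CIH libraries 2 and 3, and the log2 fold change was 0.34 (SE 0.17; unadjusted p = 0.0808). Ephb6 (gene ID 312275), a receptor without kinase activity and the B receptor with the highest TPM at 124, averaged 113 ± 15.1 CPM in CIH and 114 ± 7.36 CPM in control libraries (SD, n = 3 each), and its log2 fold change was -0.01 (SE 0.13). Epha1 (gene ID 312279) did not overlap between groups in CPM but rested on few reads. It had 13, 18 and 13 counts in CIH libraries, against 13, 10 and 6 counts in control libraries. In CPM the lowest CIH library had 0.657 and the highest control library 0.646. By TPM the groups overlapped, with 2.02, 3.29 and 2.65 in CIH libraries, against 3.45, 2.49 and 0.93 in control libraries. The log2 fold change of Epha1 was 0.65 (SE 0.40), and its gene overlaps Zyx.

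**Figure D3:**
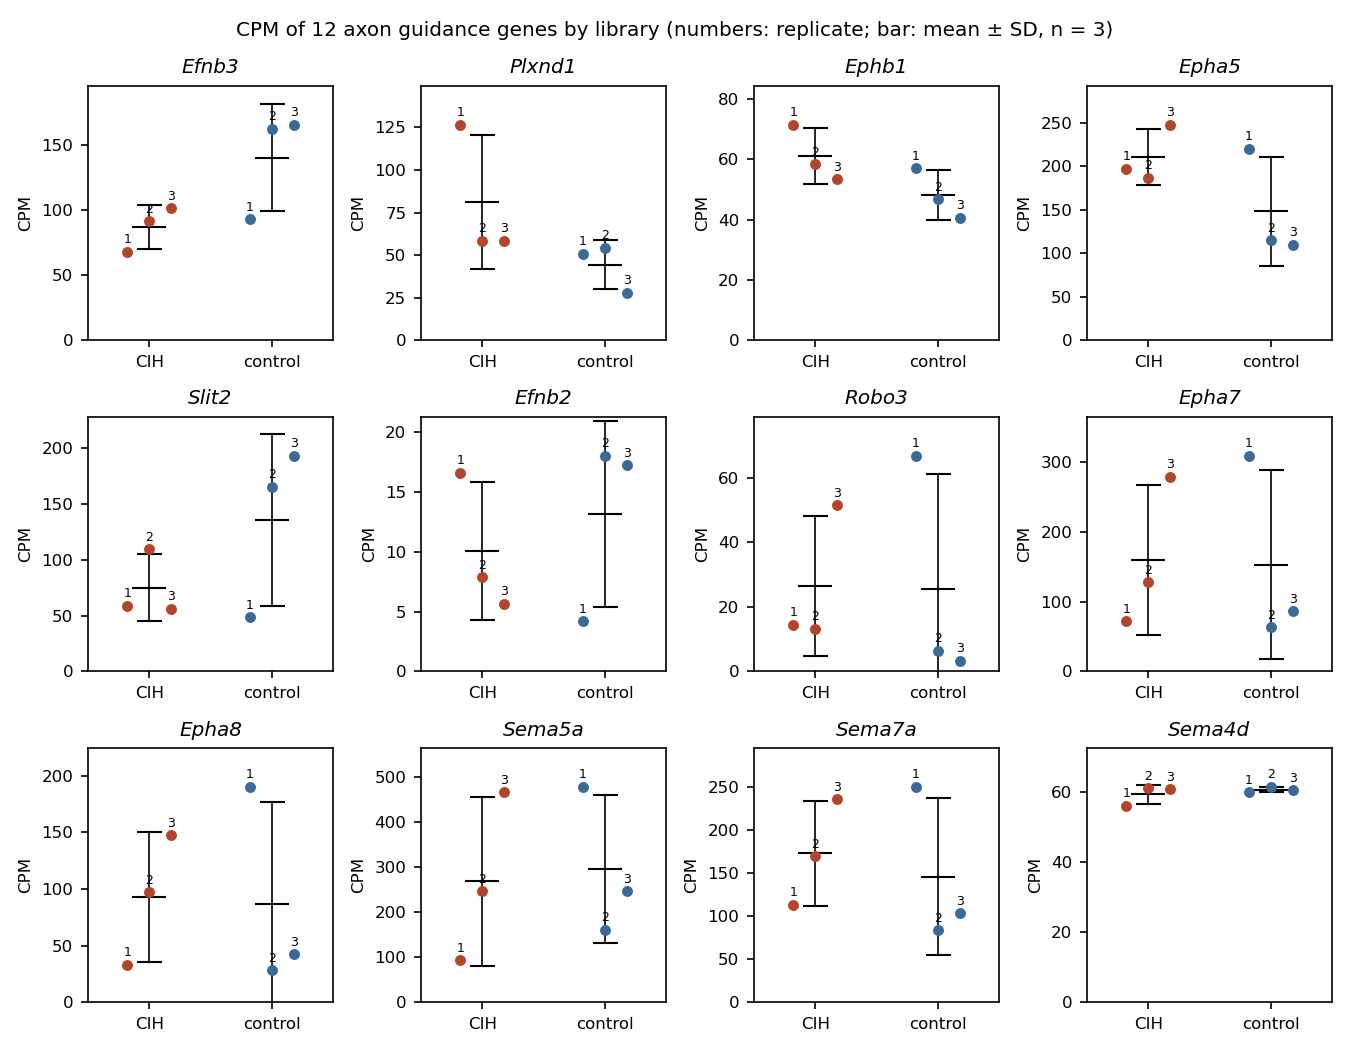
CPM of 12 guidance genes, CIH left of control, each point 1 RNA library numbered by replicate, with the mean and SD (n = 3 each) and an axis from 0. Control 1 sits with CIH library 3 in Robo3, Epha7, Epha8, Sema5a and Sema7a, far from controls 2 and 3, while Sema4d stays between 56.2 and 61.6 CPM in all 6 libraries.

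The guidance genes varied more between libraries of one group than the typical gene did. The median SD within groups was 0.379 on the log2(CPM + 1) scale over the 61 members and 0.199 over all tested genes. Among genes averaging 10 to 500 CPM it was 0.388 over 49 members and 0.172 over 10208 genes. The highest values were 1.67 for Robo3, 1.27 for Epha8, 1.09 for Epha7 and 0.990 for Sema5a, genes named here after their values were seen.

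Epha7 (gene ID 171287), an Eph receptor that shapes dendrites and spines, had 72.0, 127 and 279 CPM in CIH libraries 1, 2 and 3, against 309, 63.2 and 86.7 CPM in control libraries 1, 2 and 3. Epha8 (gene ID 60589), a related receptor of A ephrins, had 33.3, 97.2 and 147 CPM in CIH libraries, against 190, 28.2 and 42.6 CPM in control libraries. Sema5a (gene ID 310207), a transmembrane semaphorin known in mouse to limit synapses on dentate granule cells, had 93.8, 246 and 466 CPM in CIH libraries, against 478, 161 and 247 CPM in control libraries. In all 3 genes control library 1 was highest and CIH library 3 next, so each group held a high and a low library. Their log2 fold changes were 0.06, 0.09 and -0.14, each with an SE of at least 0.61.

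This arrangement ran through many members. CIH library 3 and control library 1 were the 2 highest libraries in 16 members and the 2 lowest in 12, together 28 of 61 or 45.9%, against 28.2% of all tested genes. This pair is given because it had the highest share of the 15 pairs of libraries. Controls 2 and 3 were the 2 highest or the 2 lowest in 37.7% of members, against 19.2% of all tested genes. CIH library 1 and control library 2 were so in 37.7% of members, against 24.7% of all tested genes. As deviations from the 6-library mean on the log2(CPM + 1) scale, the 61 members of CIH library 3 correlated with those of control library 1 at Pearson's r = 0.915, and with those of control library 2 at r = -0.938. Over all 17935 tested genes the same pairs of libraries had r = 0.523 and r = -0.615. These are descriptions across genes, which are not independent. The 6 deviations of a gene also sum to 0, which pulls the values below 0 on average. Neither the r values nor the shares of library pairs were compared with genes of like level. Of all tested genes 1219 averaged under 1 TPM, against 1 of the 61 members. The highest members in CIH library 3 and control library 1 were Robo3, Epha7, Epha8 and Sema5a, and the lowest were Slit2 and Efnb2.

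**Figure D4:**
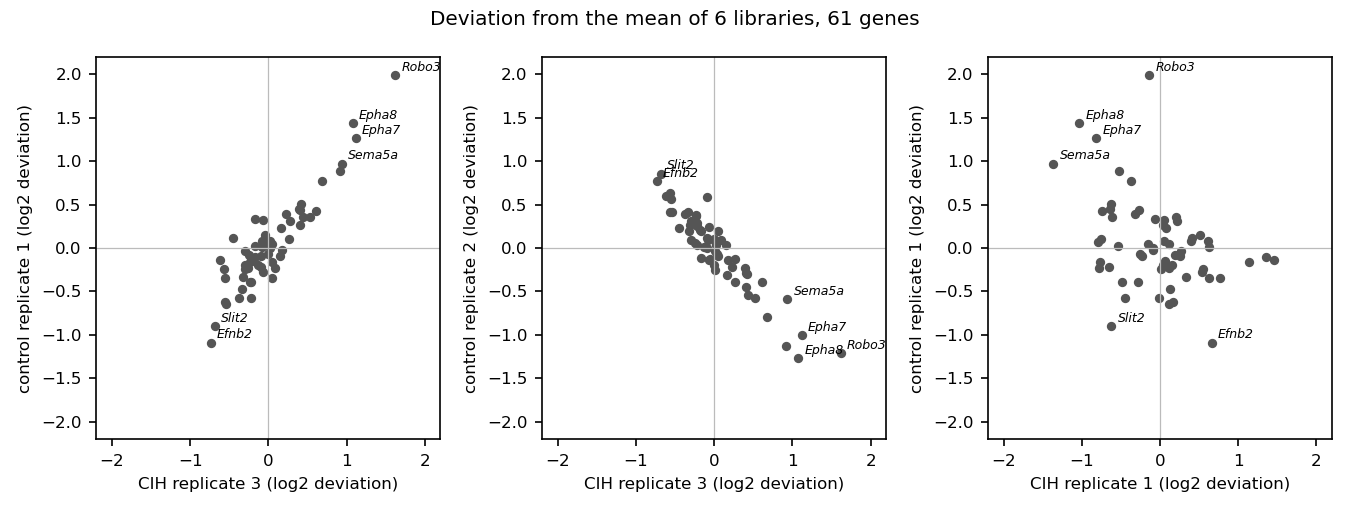
Deviation of each of the 61 guidance genes from its 6-library mean (log2 of CPM + 1), for CIH 3 against control 1 (left), CIH 3 against control 2 (middle) and CIH 1 against control 1 (right). Points follow a rising line in the left panel (r = 0.915) and a falling line in the middle panel (r = -0.938), across the 2 groups.

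Genes of other kinds shared this order. The dentate granule cell markers given above were highest in summed level in control library 1 and next in CIH library 3. Prox1 made up 420 of the 661 CPM in control library 1 and 360 of the 567 CPM in CIH library 3. Of the 7 markers tested, 6 were highest in control library 1, while Npnt was highest in control library 3 at 2.27 CPM. Dsp had 7.09 CPM in control library 3, above CIH library 3 at 6.57 CPM. Of all 9 markers, Tdo2 was at 0 in CIH libraries 1 and 2 and control library 3, and Lct in control library 1. The summed level of 10 oligodendrocyte markers, the myelinating glia, was 4993, 5448 and 7690 CPM in CIH libraries 1, 2 and 3, against 7605, 3167 and 3138 CPM in control libraries 1, 2 and 3, with none at 0. Of the genes known to grade along the long axis of the hippocampus, a list chosen after the values were seen, 1 dorsal gene followed the order. Wfs1, which is also a CA1 marker, had 525, 304 and 716 CPM in CIH libraries 1, 2 and 3. In control libraries 1, 2 and 3 it had 784, 253 and 98.6 CPM. Of the other CA1 markers, Fibcd1, Mpped1 and Man1a1 were highest in CIH library 2, while Pou3f1 followed the order. The other dorsal genes did not follow it: Ccn3 had 82.1, 85.4 and 80.0 CPM in CIH, against 74.5, 72.4 and 60.3 CPM in control libraries, and Lct was under 1 CPM in every library. The 6 ventral ones summed to 151, 88.3 and 46.4 CPM in CIH, against 44.2, 221 and 212 CPM in control libraries. Htr2c, a serotonin receptor of the ventral list, had 83.2, 64.6 and 19.6 CPM in CIH libraries, against 15.5, 159 and 161 CPM in control libraries. It made up 159 of the 221 CPM in control library 2. Htr2c, Grp and Trhr were lowest in CIH library 3 and control library 1, but the other ventral genes were not. Gpc3 was lowest in CIH libraries 1 and 2, at 3.48 and 4.69 CPM. Coch was lowest in CIH libraries 2 and 3, at 2.61 and 4.198 CPM. Dcn was lowest in control library 1, at 11.4 CPM, and next lowest in CIH library 2, at 11.8 CPM. Whether the guidance genes follow the share of these cell types or regions in each library was not tested.

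**Figure D5:**
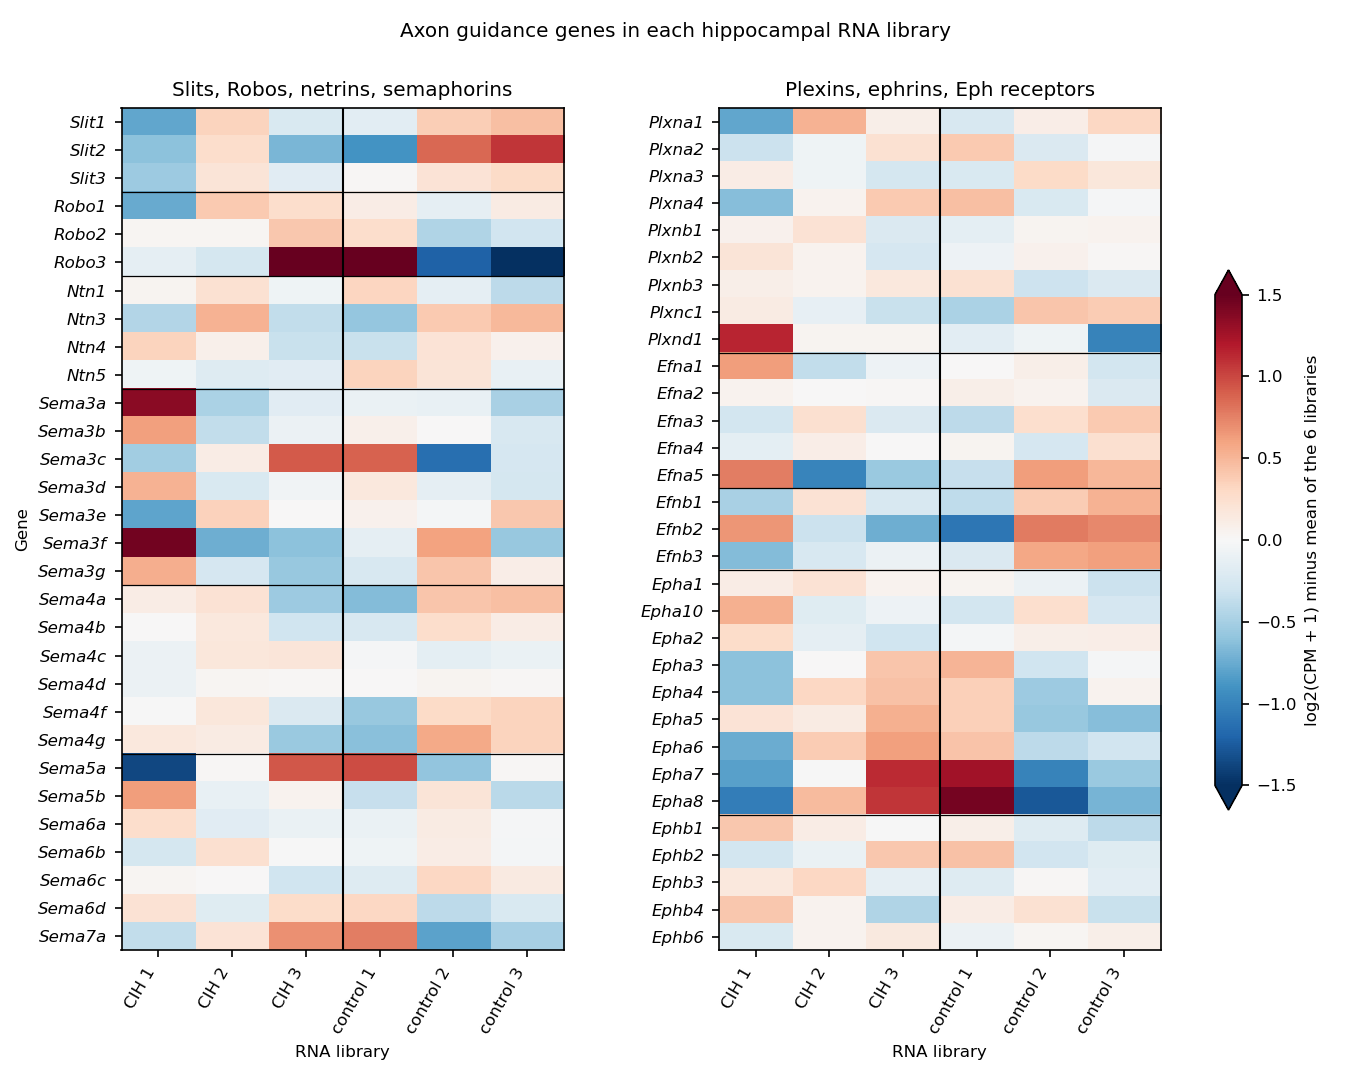
Each of the 61 guidance genes (rows, by family) in the 6 RNA libraries (columns, CIH left of control), coloured by log2(CPM + 1) minus its mean over the 6 libraries. Rows of opposite sign in CIH 3 and control 1 against controls 2 and 3, such as Slit2, Robo3, Epha7 and Efnb2, recur across families, and CIH 1 holds single high values such as Plxnd1, Sema3a and Sema3f.

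Partners of these ligands and receptors were counted from 3 lists of genes of the same pathways. For none of the 3 lists was the count repeated with single libraries left out. Of 16 co-receptors and other receptors, 7 were higher and 9 lower in CIH, with a median log2 fold change of -0.02 and none called by edgeR. Beside them, 50.6% of all tested genes were higher. Unc5d, Unc5a and Nrp2 had the smallest p. Unc5d, a netrin receptor of the UNC5 family, had 104, 124 and 190 CPM in CIH libraries 1, 2 and 3, against 206, 178 and 198 CPM in control libraries 1, 2 and 3, a log2 fold change of -0.48 (SE 0.22). CIH libraries 1 and 2 were below every control, and CIH library 3 lay among them. For Nrp2, a neuropilin, the log2 fold change was -0.39 (SE 0.29), and for Unc5a it was -0.40 (SE 0.28).

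Of 13 other cues, 3 were higher (50.6% of all tested genes were) and 10 lower in CIH, with a median of -0.18 and none called by edgeR. Flrt3, a membrane protein that binds UNC5 receptors, was the one whose groups did not overlap, beside 5.70% of all tested genes. It had 21.7, 27.3 and 27.5 CPM in CIH libraries, against 31.6, 28.1 and 45.8 CPM in control libraries, a log2 fold change of -0.46 (SE 0.21). CIH library 3 and control library 2 were close to each other. Wnt5a and Shh, secreted signals that also steer axons, had log2 fold changes of -0.49 (SE 0.31) and -0.70 (SE 0.43).

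Of 38 intracellular effectors, 27 were higher (50.6% of all tested genes were) and 11 lower in CIH, with a median of 0.05 and none called by edgeR. Pak1, a kinase that links Rac to the actin skeleton, had 242, 159.8 and 224 CPM in CIH libraries 1, 2 and 3, against 103, 88.6 and 11.4 CPM in control libraries 1, 2 and 3. Control library 3 was far below the other controls. Pak1 was the effector whose groups did not overlap, with every CIH library above every control, as in 3.05% of all tested genes. Its log2 fold change was 1.62 (SE 0.69; unadjusted p = 0.0522, edgeR adjusted p = 1.00). Nck2, an adaptor of Eph receptors, and Mical2, an enzyme that oxidises actin, had log2 fold changes of 0.20 (SE 0.13) and 0.19 (SE 0.14).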

How the data were processed

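Hippocampal RNA was taken up in TRIzol and read on BGI sequencers, per the labels' protocols. Bowtie2 2.2.5, RSEM 1.2.12 and HISAT2 2.2.0 are named in the submitters' processing notes, with Rnor_6.0 as the build and no roles. Annotation and strand use were not given in the sources used here. Per the file headers, the RNA table holds estimated counts, TPM and FPKM. The deposited estimated counts (16.0% not whole) were rounded. Levels were compared between genes by the authors' TPM, which also gave an alternative test, and the authors' FPKM was not used. The deposited small RNA counts (4681163 to 4914232 per library) entered unrounded, and the authors' RPM gave an alternative test.

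Each table was fitted whole in R 4.3.3 with edgeR 4.0.16, by its quasi-likelihood F test with TMM factors and filterByExpr. P-values were adjusted by Benjamini-Hochberg over the 17935 genes or 715 miRNAs left by the filter, at a threshold of 0.05. CPM are counts scaled by TMM-adjusted totals. An SE is the size of the log2 fold change over the square root of F. The fit was also run on simulated counts, drawn for each gene on its own. That run does not speak to differences between libraries that many genes share. The members and lists were chosen with earlier results of these data known. Members were named where their groups did not overlap, for the 8 smallest p, for the highest TPM of each family and for nearness to the count limit. For each pathway list the 3 smallest p were named. Promoters and miRNAs came from RefSeq tables of GRCr8, another build than the files', matched by gene ID or name. The alternatives were RLE normalization, no low-count filter, DESeq2 1.42.0, limma 3.58.1 on log2(TPM + 1) or log2(TPM + 0.1), with RPM in place of TPM for miRNAs, a replicate block, and each library left out in turn. Python 3.11.15 and matplotlib 3.10.9 drew the figures.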

Additional observations from a re-analysis of the deposited data

How the results depend on the processing

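No guidance gene was called under any of the 12 other settings, which in all left the members between 28 and 33 higher in CIH. Their median log2 fold change ran from -0.045 (without CIH library 3) to 0.077 (without control library 1) when single libraries were left out. The count of all genes called was 10 with DESeq2, 1 with limma at either pseudocount and 0 to 1 when single libraries were left out. The count of miRNAs called was 2 without the low-count filter, 2 with DESeq2, 2 with limma at either pseudocount and 0 to 1 when single libraries were left out. Of 18 members named by rule, 11 kept their direction in every setting. The sign turned when single libraries were left out for Ntn1 (-0.038 without control library 3, up to 0.36), Sema3e (0.026 without CIH library 1, down to -0.50), Sema4d (0.00082 without CIH library 1, down to -0.054), Sema7a (-0.047 without CIH library 3 and -0.035 without control library 2, up to 0.88), Plxna2 (0.079 without control library 1 and 0.0082 without CIH library 1, down to -0.27), Ephb6 (0.085 without CIH library 1 and 0.028 without control library 3, down to -0.10), Efna4 (0.27 without control library 3 and 0.071 without CIH library 1, down to -0.41) and miR-218a-5p (0.022 without CIH library 1, down to -0.088). Ephb6 was also 0.16 in both limma fits. The cause was not tested. The labels do not say whether the replicate numbers pair the RNA samples, and this was not tested. Across genes, deviations of same-numbered libraries from their group means correlated at -0.274, -0.0440 and -0.215. With the replicate block, 0 members, 0 genes and 0 miRNAs were called and 3 members had an unadjusted p under 0.05, against 1 without it, while the share of all genes with such a p was 1.77% with the block and 1.78% without it. With 3 libraries a group and a median SE of 0.29 on the log2 scale over the members, small differences were not detectable. Larger ones could be missed as well. The fitted log2 fold changes of Plxnd1 (0.87) and Slit2 (-0.86) were not called. Whether these 2 are true differences cannot be told from these libraries.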
